A study of Mus musculus with 6 samples.

Results

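The 9 genes described here, Pax3, Pax7, Six4, Eya1, Myf5, Myod1, Myog, Myf6 and Mef2c, encode transcription regulators that direct embryonic cells into skeletal muscle. They were taken by name, not by their values, from the 23073 gene entries with an RPKM value (reads per length of transcript, scaled to all mapped reads of the library), and all 9 lay above the lowest value listed in each of the 6 libraries. The libraries came from mouse diaphragm at E14.75, in 3 groups of 2 biological replicates: total RNA of erbB3 WT muscle (WT 5 and WT 6), total RNA of erbB3 KO muscle, which lacks Schwann cells (mutant 1 and mutant 2), and anti-hemagglutinin polysome RNA from Wnt1-Cre, Ribotag, erbB3 WT muscle (Wnt1-Ribotag 1 and 2). Ribotag places an epitope tag on the ribosomal protein Rpl22 in cells that have expressed Cre, and Wnt1-Cre acts in the neural crest, the origin of Schwann cells, so that muscle fibers are not expected to carry the tag. Each Wnt1-Ribotag library was a pool of 4 diaphragms and started from 2 ng of RNA rather than 500 ng. By the study's methods a whole litter was homogenized before its genotypes were known, and whether diaphragms without Cre shared the lysate is not clear from them. The Wnt1-Ribotag and WT groups therefore differed in preparation as well as in alleles, and the Wnt1-Ribotag and mutant groups also in erbB3 genotype, and these cannot be told apart.

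In embryonic muscle, Pax3 and Pax7 mark progenitors, and Six4 acts, with Eya cofactors, upstream of the myogenic regulatory factors. Those 4 basic helix-loop-helix factors are Myf5 and Myod1, which commit cells to the lineage, Myog, which is needed for myoblasts to differentiate into fibers, and Myf6 (MRF4), which is prominent in differentiating and mature fibers. They bind E-boxes together with E proteins such as Tcf3, and Mef2 proteins act with them on muscle genes.

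The promoters of Myog and Myf5 are shown because these 2 members of one family were measured at very different levels. Both are the 250 bases before a RefSeq transcription start on GRCm38.p6, which is not the build of the deposited values, and promoter windows were matched for 5 of the 9 genes (Pax7, Six4, Myf5, Myog and Mef2c). Capitals mark the E-box CANNTG, the Six4-binding MEF3 element TCAGGTT and a loose MEF2-like pattern CTANNNNTA, searched on both strands. The first sequence is chr1:134289754-134290003 on the plus strand and the second chr10:107486135-107486384 on the minus strand.
Myog: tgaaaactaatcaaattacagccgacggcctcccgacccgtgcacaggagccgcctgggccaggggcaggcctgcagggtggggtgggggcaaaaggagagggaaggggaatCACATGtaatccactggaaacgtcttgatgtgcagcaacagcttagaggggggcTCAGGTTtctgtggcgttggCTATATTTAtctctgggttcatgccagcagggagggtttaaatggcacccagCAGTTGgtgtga
Myf5: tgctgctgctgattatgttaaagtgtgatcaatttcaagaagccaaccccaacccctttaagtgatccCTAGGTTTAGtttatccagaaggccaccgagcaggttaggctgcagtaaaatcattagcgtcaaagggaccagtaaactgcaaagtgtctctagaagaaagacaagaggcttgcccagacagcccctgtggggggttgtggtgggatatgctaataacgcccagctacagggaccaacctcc
The Myog window held an E-box starting 138 bases and another starting 12 bases before the start, a MEF3 element at 84 bases and the loose MEF2-like pattern at 64 bases. In the Myf5 window the capitals cover 2 overlapping matches to the loose pattern, on opposite strands, and no E-box or MEF3 element was found. At least 1 E-box was present in 66.2% of all 32851 promoter windows, a MEF3 element in 3.49% and the loose MEF2-like pattern in 19.0%. Among the 5 genes with a window, 2 held an E-box, 3 a MEF3 element and 3 the loose pattern in any of their windows (Six4 had 2 and Mef2c had 3, so that these counts are not comparable with the shares of single windows), whereas the full MEF2 consensus was found in none of them and in 2.92% of all windows. These matches are a description of letters in a window.

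The depth implied by the lowest listed values was 100178863 to 230216660 mapped reads per library. Erbb3 itself, which the mutant allele targets, was listed at 16.5 and 15.8 RPKM in WT, 21.5 and 11.9 in mutant and 19.5 and 25.3 in Wnt1-Ribotag muscle, so its RNA level did not check the genotype. Sox10, a defining transcription factor of Schwann cells, did separate the groups, at 2.89 and 2.16 RPKM in WT, 0.00854 and 0.0178 in mutant and 15.5 and 32.2 in Wnt1-Ribotag libraries. The Wnt1-Ribotag RNA, labelled as specific to Schwann cells, nevertheless held muscle RNA: the summed level of 12 skeletal muscle markers was 3610 and 3320 RPKM there, against 3950 and 3250 in WT and 6420 and 4460 in mutant muscle. Summed over 10 liver markers the level was 543 and 165 RPKM in WT, 18.7 and 11 in mutant and 289 and 207 in Wnt1-Ribotag libraries, and 4 of them were called lower in the mutant; their part in the results was not tested. Connective tissue markers (14 genes, 1750 to 2510 RPKM in all) and endothelial markers (8 genes, 39.7 to 58.3 RPKM) differed less in sum between libraries. Among the former, Tnmd and Kera, which are known from tendon and keratocytes, were called higher in the mutant, at 2.99 and 3.17 times the WT mean (limma adjusted p = 0.00821 and 0.0107), and their part in the results was not tested. In these bulk samples fewer cells of a type and less RNA per cell cannot be told apart.

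On the RPKM scale, which is per length, Myog was by far the most abundant of the 9 regulators, followed by Myod1 and Mef2c, and Pax3 was the least abundant in every group. In WT muscle the order of mean levels was Myog, Myod1, Mef2c, Myf6, Pax7, Myf5, Six4, Eya1 and Pax3. The values of the neighbours Myf6 and Pax7 overlapped, as did those of Myf5 and Six4 and those of Six4 and Eya1, while the remaining neighbours were separated. In the mutant the order was the same, but among neighbours only Myod1 and Mef2c overlapped, and Pax7 and Myf5. In Wnt1-Ribotag RNA Mef2c lay above Myod1, and the values of neighbours from Myf6 through Eya1, Pax7, Myf5 and Six4 overlapped. Myog ranked at percentile 98.7 to 99.2 of all genes over the libraries, whereas Pax3 ranked at percentile 46.1 to 51.5.

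**Figure D1:**
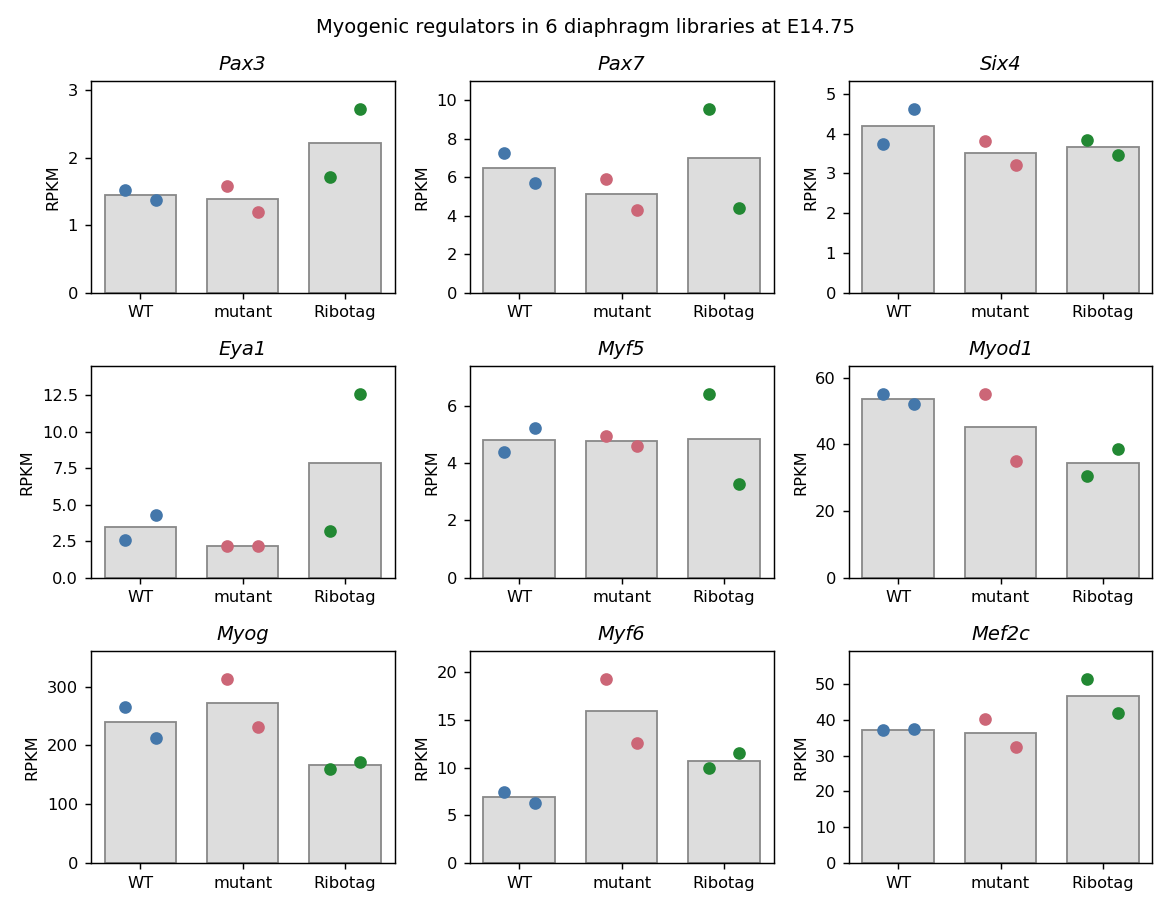
RPKM of each of the 9 regulators (1 panel per gene, each with its own linear axis from 0), with points for the 2 libraries of each group, replicate order from left to right, and bars for the group mean. Myog spans 160 to 313 RPKM, and both mutant points of Myf6 (19.3 and 12.6) lie above both WT points (7.48 and 6.30).

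The first comparison, mutant against WT, asked how the muscle transcriptome differs when Schwann cells are absent. The paper chose E14.75 as the stage of maximal denervation in the mutant. Absence of Schwann cells and loss of motor axons therefore cannot be told apart in these libraries. Of the 9 regulators Myf6 showed the clearest difference, with a mean 2.31 times higher in mutant muscle, and the other 3 myogenic regulatory factors showed none beyond the spread of the libraries. No regulator passed an adjusted p of 0.05 in limma, against 0.171% of the 14052 genes tested. At an unadjusted p under 0.05 there were 2 of 9, Myf6 higher and Eya1 lower, where 12.0% of all genes were reached (2.38% higher and 9.66% lower). The mutant and WT values of the same 2 genes did not overlap, as was the case for 50.0% of all genes (12.7% higher and 37.4% lower). The median log2 fold change of the 9 regulators was -0.059, and that of all genes was -0.10.

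Both myogenic progenitor regulators were measured at similar levels in WT and mutant muscle. Pax7 (ENSMUSG00000028736) was 7.26 and 5.67 RPKM in WT, 5.89 and 4.31 in mutant and 9.55 and 4.38 in Wnt1-Ribotag libraries. Its mutant and WT values overlapped, with a log2 fold change of -0.32 (SE 0.19, limma adjusted p = 0.484). Pax3 (ENSMUSG00000004872), which also acts in neural crest, was 1.53 and 1.38 RPKM in WT, 1.58 and 1.20 in mutant and 1.72 and 2.73 in Wnt1-Ribotag libraries. The mutant values lay on both sides of the WT values, with a log2 fold change of -0.059 (SE 0.17, limma adjusted p = 0.892).

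Among the upstream regulators, Six4 stayed within the WT range in 1 mutant library, while Eya1 was lower in both. Six4 (ENSMUSG00000034460), a homeodomain protein that binds MEF3 elements, was 3.74 and 4.63 RPKM in WT, 3.82 and 3.21 in mutant and 3.85 and 3.47 in Wnt1-Ribotag libraries, with a mutant-to-WT log2 fold change of -0.22 (SE 0.17, limma adjusted p = 0.559). Eya1 (ENSMUSG00000025932), a phosphatase and coactivator that works with Six4, was 2.61 and 4.30 RPKM in WT, 2.16 and 2.21 in mutant and 3.18 and 12.6 in Wnt1-Ribotag libraries. Both mutant values were below both WT values, but the WT values differed more from each other than the nearer WT value did from the mutant. The log2 fold change of Eya1 was -0.52 (SE 0.22, limma adjusted p = 0.407), with the 4 mutant and WT pairs between -0.85 and -0.20. The sum of 10 neuron markers was 13.7 and 64.5 RPKM in WT, 8.98 and 12.2 in mutant and 118 and 518 in Wnt1-Ribotag libraries. That of 20 Schwann and neural crest markers was 56.5 and 70.0, 34.3 and 23.1, and 248 and 679 RPKM in the same order. Both sums were higher in Wnt1-Ribotag 1 than in WT 6, while Eya1 was lower there (3.18 against 4.30). Only Chat in Wnt1-Ribotag 1 and Sox2 in mutant 1 were at the lowest listed value. The part of either list in the Eya1 values was not tested.

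The commitment factors did not separate mutant from WT muscle. Myf5 (ENSMUSG00000000435) was 4.38 and 5.22 RPKM in WT, 4.93 and 4.61 in mutant and 6.42 and 3.27 in Wnt1-Ribotag libraries. Both mutant values lay between the WT values, with a log2 fold change of -0.005 (SE 0.15, limma adjusted p = 0.992). Myod1 (ENSMUSG00000009471) was 55.1 and 52.1 RPKM in WT, 55.2 and 35 in mutant and 30.5 and 38.6 in Wnt1-Ribotag libraries. Mutant 1 was at the WT level and mutant 2 below it, with a log2 fold change of -0.28 (SE 0.21, limma adjusted p = 0.541).

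Of the differentiation factors, Myf6 was higher in mutant muscle and Myog was not distinguishable. Myog (ENSMUSG00000026459) was 266 and 212 RPKM in WT, 313 and 232 in mutant and 160 and 172 in Wnt1-Ribotag libraries. The mutant and WT values of Myog overlapped, with a log2 fold change of 0.18 (SE 0.20, limma adjusted p = 0.678). Myf6 (ENSMUSG00000035923) was 7.48 and 6.30 RPKM in WT (6.89 ± 0.839, SD, n = 2), 19.3 and 12.6 in mutant (15.9 ± 4.74, SD, n = 2) and 9.98 and 11.5 in Wnt1-Ribotag libraries (10.8 ± 1.10, SD, n = 2). Each mutant value was above each WT value, at 1.68 to 3.06 times its level over the 4 pairs, and the Wnt1-Ribotag values lay between the groups. The log2 fold change of Myf6 was 1.13 (SE 0.21, unadjusted p = 0.000674, limma adjusted p = 0.111), so that it did not pass the correction over all genes. In the alternatives tried its log2 fold change ranged from 0.72 to 1.42 and its limma adjusted p from 0.0596 to 0.641.

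The skeletal muscle markers differed between the mutant libraries. Their mean log2 RPKM was 7.03 and 6.79 in WT, 7.69 in mutant 1 and 6.9 in mutant 2, so that mutant 1 was above the WT values and mutant 2 between them. Of the 12 markers 10 had a mutant-to-WT fold change above 0, against 33.0% of all genes, with a median of 0.23 on the log2 scale, and none passed the adjusted threshold. Setting each library relative to 11 of these markers, a scale chosen after the values were seen, gave Myf6 a log2 fold change of 0.72 (limma adjusted p = 0.641) and Myog one of -0.22. How far the amount of muscle RNA contributes to the Myf6 values was not tested further.

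Mef2c (ENSMUSG00000005583), a MADS-box factor that cooperates with the myogenic regulatory factors and is also expressed in endothelium and neurons, had overlapping values in WT and mutant muscle. Its level was 37.0 and 37.5 RPKM in WT, 40.2 and 32.5 in mutant and 51.4 and 41.9 in Wnt1-Ribotag libraries. The mutant values lay on both sides of WT, with a log2 fold change of -0.042 (SE 0.15, limma adjusted p = 0.912).

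**Figure D2:**
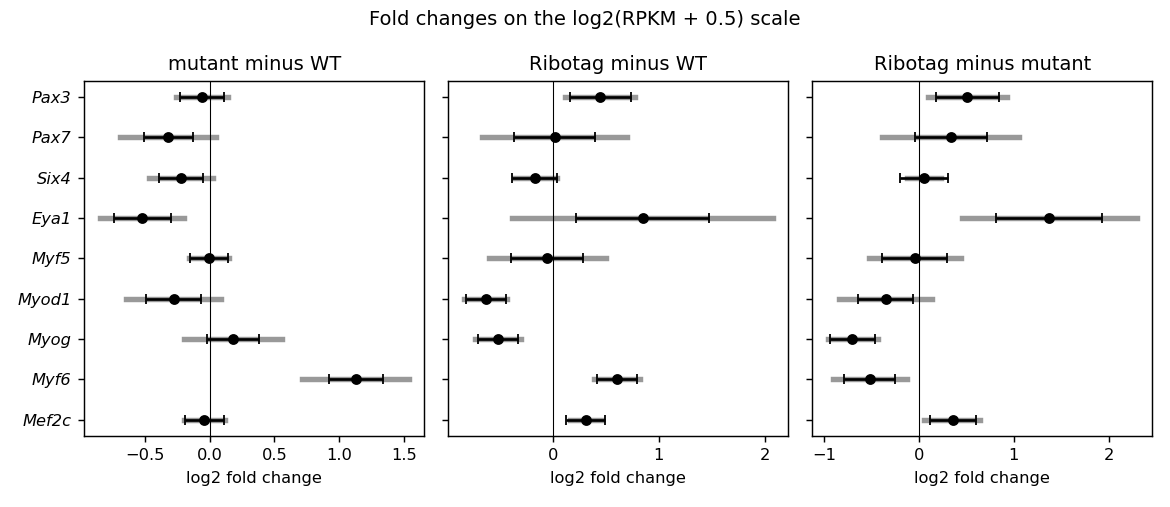
Fitted log2 fold change of each regulator (points, log2(RPKM + 0.5) scale) in the 3 comparisons, with thin bars for the standard error and grey bars for the range of the 4 pairs of libraries; each panel has its own horizontal axis. Myf6 stands highest in mutant against WT (1.13), and Eya1 has the widest spread of pairs in both comparisons with Wnt1-Ribotag.

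The second comparison, Wnt1-Ribotag against WT, set the anti-hemagglutinin polysome RNA, which also held muscle RNA, against whole muscle of the same erbB3 genotype. Relative to WT muscle, Myod1 and Myog were at 0.645 and 0.695 of the WT mean, and Myf6 was at 1.56 times the WT mean. None of the 9 regulators passed the adjusted threshold, where 1 gene of 14418 did (0.00694%). At an unadjusted p under 0.05 there were 3 of 9, Myf6 higher and Myod1 and Myog lower, against 19.5% of all genes (8.19% higher and 11.3% lower). The values of 5 of 9 did not overlap, against 54.3% of all genes (23.3% higher and 31.0% lower). These 5 were Pax3, Myf6 and Mef2c, higher in Wnt1-Ribotag libraries, and Myod1 and Myog, lower.

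The log2 fold change was -0.63 for Myod1 (SE 0.19, limma adjusted p = 0.199), with the 4 pairs between -0.84 and -0.43. That of Myog was -0.52 (SE 0.19, limma adjusted p = 0.238) and that of Myf6 was 0.61 (SE 0.19, limma adjusted p = 0.212). Mef2c and Pax3 had log2 fold changes of 0.31 (SE 0.18, limma adjusted p = 0.385) and 0.45 (SE 0.29, limma adjusted p = 0.441). The 2 Wnt1-Ribotag libraries disagreed most for Eya1, where library 1 lay within the WT range and library 2 was far above it, and the log2 fold change was 0.85 (SE 0.63, limma adjusted p = 0.498). Without Wnt1-Ribotag 2 the log2 fold change of Eya1 was -0.068, and without Wnt1-Ribotag 1 it was 1.77. Pax7 and Myf5 were above the WT range in Wnt1-Ribotag 1 and below it in Wnt1-Ribotag 2, and Six4 was within the WT range in library 1 and below it in library 2. The summed level of 20 Schwann and neural crest markers was 248 and 679 RPKM in these libraries and 56.5 and 70.0 in WT, with every marker above its lowest listed value, and its part in the members' values was not tested.

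The third comparison, Wnt1-Ribotag against mutant, set the same polysome RNA against muscle without Schwann cells, and it shares its libraries with the other comparisons. Myog was at 0.61 and Myf6 at 0.676 of the mutant mean, and Eya1 at 3.62 times the mutant mean. No regulator passed the adjusted threshold, which 1.19% of 14325 genes passed. At an unadjusted p under 0.05 there were 2 of 9, Eya1 higher and Myog lower, against 19.3% of all genes (11.8% higher and 7.46% lower). The values of 5 of 9 did not overlap, against 54.1% of all genes (29.7% higher and 24.4% lower), with Pax3, Eya1 and Mef2c higher and Myog and Myf6 lower. The log2 fold change was -0.70 for Myog (SE 0.24, limma adjusted p = 0.206), 1.37 for Eya1 (SE 0.56, limma adjusted p = 0.252) and -0.52 for Myf6 (SE 0.27, limma adjusted p = 0.350). The value of Eya1 rested on Wnt1-Ribotag 2: it was 0.46 without that library and 2.29 without Wnt1-Ribotag 1. Pax7, Myf5, Six4 and Myod1 overlapped between these groups.

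Shares within a family do not depend on the scaling of a library, and the share of Myf6 was higher in mutant than in WT muscle while that of Myod1 was lower. Neither overlapped, but 2 against 2 libraries cannot pass an exact test, and 50.0% of all genes did not overlap in RPKM in this comparison. Myog made up 76.3% to 81.6% of the summed RPKM of the 4 myogenic regulatory factors in every library, with overlapping values in WT and mutant. Myod1 made up 16.6% and 18.9% in WT, 14.1% and 12.3% in mutant and 15% and 17.1% in Wnt1-Ribotag libraries. The share of Myf6 was 2.25% and 2.28% in WT, 4.91% and 4.43% in mutant and 4.83% and 5.11% in Wnt1-Ribotag libraries. Both other groups thus lay above WT, and they overlapped each other. The ratio of Myf6 to Myog was 0.0282 and 0.0296 in WT, 0.0616 and 0.0543 in mutant and 0.0624 and 0.067 in Wnt1-Ribotag libraries. On the log2 scale this ratio was 1.0 higher in mutant than in WT and 1.16 higher in Wnt1-Ribotag than in WT (two-sided exact permutation p = 0.333 for each, the smallest that 2 against 2 libraries can give). The summed RPKM of the family was 333 and 276 in WT, 392 and 284 in mutant and 207 and 226 in Wnt1-Ribotag libraries.

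The ratio of Myog to Myod1 was 4.82 and 4.08 in WT and 5.67 and 6.61 in mutant, without overlap, and 5.24 and 4.46 in Wnt1-Ribotag libraries. Mef2c relative to Myog was 0.139 and 0.177 in WT and 0.129 and 0.14 in mutant, and it was higher in both Wnt1-Ribotag libraries, at 0.321 and 0.243. Pax7 relative to Pax3 was 4.74 and 4.12 in WT and 3.74 and 3.61 in mutant, also without overlap, and 5.56 and 1.61 in Wnt1-Ribotag libraries. Myf5 relative to Pax7 was 0.604 and 0.92 in WT and 0.837 and 1.07 in mutant, and the Wnt1-Ribotag values of 0.672 and 0.746 lay below the mutant values. Myod1 relative to Myf5 was 12.6 and 9.98 in WT, 11.2 and 7.61 in mutant and 4.75 and 11.8 in Wnt1-Ribotag libraries, and all groups overlapped. With the ratio of Myf6 to Myog these are all 6 ratios computed, and no ratio can pass an exact test with 2 libraries in each group.

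Within the wider families, Mef2c held 38.0% to 46.9% of the summed RPKM of Mef2a, Mef2b, Mef2c and Mef2d. This share did not separate mutant from WT muscle. Eya1 held 10.4% and 15% of the summed RPKM of Eya1 to Eya4 in WT, 8.74% and 9.75% in mutant and 10.4% and 45.5% in Wnt1-Ribotag libraries, so that 1 library was far from the others. Pax3 was 38.4% of the sum of Pax3 and Pax7 in Wnt1-Ribotag 2 and 15.2% to 21.7% in the other libraries.

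**Figure D3:**
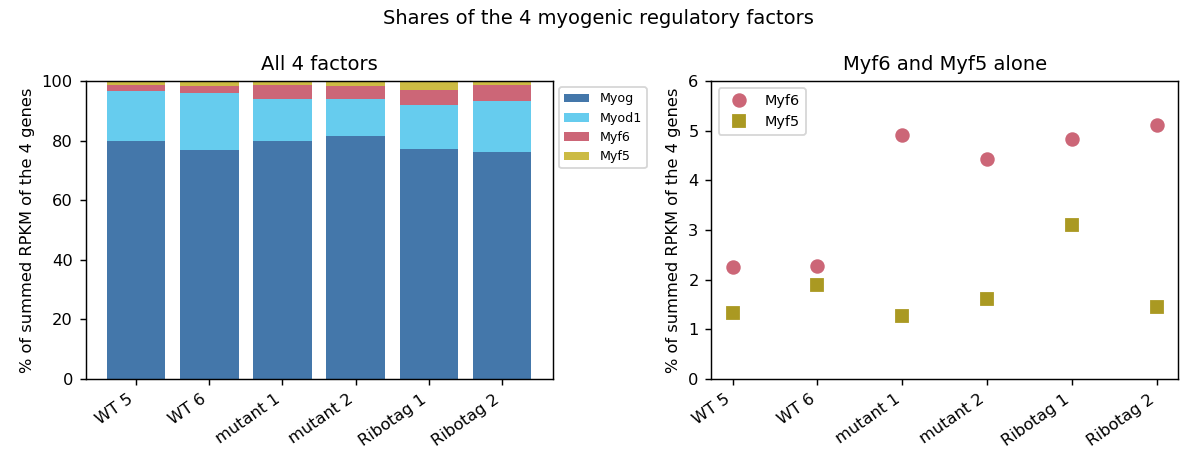
Share of the summed RPKM of the 4 myogenic regulatory factors held by each, in percent, in the 6 libraries, as stacked bars (left) and for Myf6 and Myf5 alone (right). Myog fills most of each bar (76.3% to 81.6%), and the Myf6 share is 2.25% and 2.28% in WT and 4.43% to 5.11% in the other libraries.

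The genes whose pattern over the 6 libraries was nearest to that of a regulator were found by the root mean square (RMS) difference of centred log2(RPKM + 0.5) values, over 14320 genes. Nearest to Myf6 were Cavin4, a muscle caveolar protein, at an RMS of 0.08, Tnnt3, fast skeletal troponin T, at 0.14, and Myoz2, a Z-disc protein, at 0.16. Cavin4 was 12.4 and 11.5 RPKM in WT, 33.0 and 18.7 in mutant and 17.0 and 19.0 in Wnt1-Ribotag libraries. Tnnt3 was 216 and 169 RPKM in WT, 424 and 372 in mutant and 261 and 333 in Wnt1-Ribotag libraries. Both had their highest value in mutant 1 and their lowest values in WT, as Myf6 did, although mutant 2 and Wnt1-Ribotag overlapped for Cavin4. No other regulator was close to Myf6, the nearest being Myog at an RMS of 0.50.

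Myog and Myod1 were each other's nearest regulator, at an RMS of 0.23. The genes nearest to Myog were Cd82, Pdlim3 and Kbtbd13 (0.063 to 0.073), and those nearest to Myod1 were Srebf1, Vasp and Lfng (0.062 to 0.067). Nearest to Eya1 were Mapk8ip2, Cadps and Myt1, at 0.11 each, which are known from neurons and neuroendocrine cells. Mapk8ip2 was 0.48 and 1.26 RPKM in WT, 0.31 and 0.335 in mutant and 0.738 and 3.38 in Wnt1-Ribotag libraries. Cadps was 0.231 and 0.778 RPKM in WT, 0.171 and 0.21 in mutant and 0.318 and 3.11 in Wnt1-Ribotag libraries. Myt1 was 0.043 and 0.503, 0.00139 and 0.0136, and 0.222 and 2.41 RPKM in the same order. Cadps and Myt1 exceeded 0.5 RPKM only in WT 6 and Wnt1-Ribotag 2. The added 0.5 shrinks the differences of genes this low, so their likeness to Eya1 rests partly on it. Nearest to Pax3 was Mcam (0.039), nearest to Pax7 was G430095P16Rik (0.06), nearest to Myf5 was Glce (0.044), nearest to Six4 was Chd6 (0.033) and nearest to Mef2c was Dnajc25 (0.036). The 6 libraries are 3 groups of 2 and differ in depth, and these likenesses are a description.

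**Figure D4:**
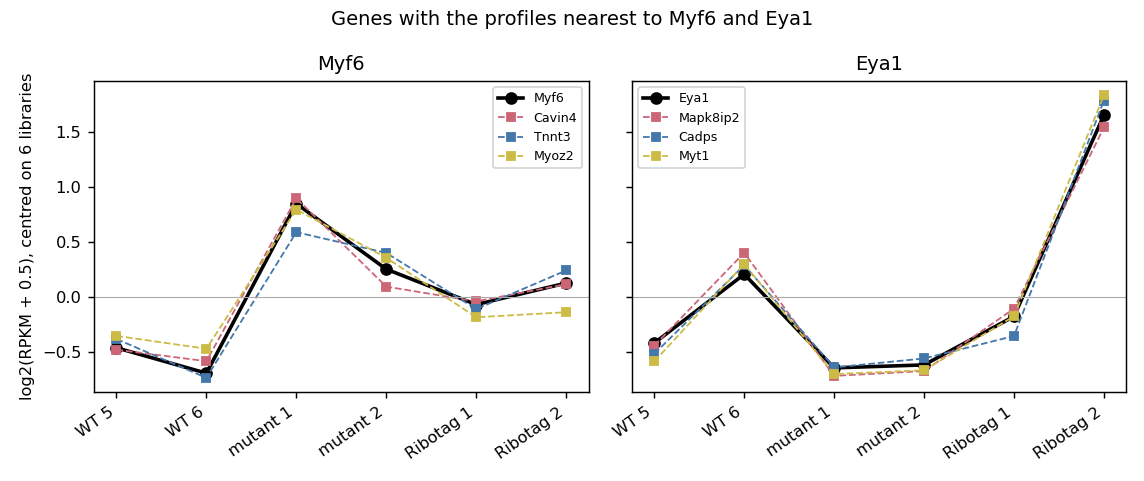
Centred log2(RPKM + 0.5) of Myf6 (left) and Eya1 (right) and of the 3 genes nearest to each by RMS difference, in the 6 libraries, with lines that only join the points of 1 gene. Cavin4, Tnnt3 and Myoz2 follow Myf6 with mutant 1 highest and both WT libraries lowest, and the genes nearest to Eya1 peak in Wnt1-Ribotag 2.

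The genes that work with the 9 regulators were described by lists. In mutant against WT, 0 of 23 tested partners and upstream regulators passed the adjusted threshold, with 6 above and 17 below 0 and a median log2 fold change of -0.16. Their mean log2 RPKM was 2.82 and 2.83 in WT, 2.78 in mutant 1 and 2.44 in mutant 2, so that mutant 2 was furthest from WT. Of 23 tested inhibitors of the myogenic factors none passed, with 6 above and 17 below 0 and a median of -0.20. Of 14 tested progenitor markers none passed, with 1 above and 13 below 0 and a median of -0.27. Their mean log2 RPKM was 2.95 and 2.94 in WT and 2.96 in mutant 1, and only mutant 2 was lower, at 2.33. Of 35 differentiation targets none passed, with 23 above and 12 below 0 and a median of 0.18. These targets include 11 of the 12 skeletal muscle markers, so the results of these lists are not separate. Their mean log2 RPKM was 5.99 and 5.82 in WT, and it was above both in mutant 1, at 6.52, and below both in mutant 2, at 5.75. Their summed RPKM, which the most abundant genes dominate, was 6720 and 5730 in WT and above both in either mutant library, at 10400 and 7400. Over all genes 33.0% were above 0, with a median of -0.10. At an unadjusted p under 0.05, which 2.38% of all genes reached in the higher and 9.66% in the lower direction, 10 of the targets were higher and 0 lower. Of the partners 5, of the inhibitors 3 and of the progenitor markers 4 were lower at that level, and 0 of each were higher.

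Among the partners, Tcf3, an E protein that dimerizes with the myogenic factors, was 53.8 and 54.8 RPKM in WT and 46.8 and 41.1 in mutant. Among the inhibitors, Id3, which sequesters E proteins, was the most abundant, at 86.2 and 85.2 RPKM in WT and 66.4 and 76.5 in mutant. Among the targets, Mylpf, the fast skeletal regulatory myosin light chain, was 1290 and 995 RPKM in WT, 2320 and 2070 in mutant and 797 and 795 in Wnt1-Ribotag libraries. Its log2 fold change was 0.95 in mutant against WT (limma adjusted p = 0.188), and it was the only 1 of the 35 targets called in any comparison, lower in Wnt1-Ribotag than in mutant libraries (log2 fold change -1.46, limma adjusted p = 0.0496).

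In Wnt1-Ribotag against WT none of these 4 lists had a gene past the adjusted threshold in limma. At an unadjusted p under 0.05 there were 3 lower and 0 higher of 23 partners, 4 lower and 1 higher of 23 inhibitors, 4 lower and 1 higher of 14 progenitor markers, and 2 lower and 3 higher of 35 targets, against 11.3% lower and 8.19% higher of all genes. The median log2 fold changes were -0.18 for partners, -0.26 for inhibitors, 0.0082 for progenitor markers and 0.0024 for differentiation targets, beside -0.051 for all genes. In Wnt1-Ribotag against mutant the medians were 0.02, -0.011, 0.16 and -0.27, beside 0.036 for all genes. At an unadjusted p under 0.05 there were 1 lower and 0 higher of 23 partners, 4 lower and 3 higher of 23 inhibitors, 1 lower and 2 higher of 14 progenitor markers, and 9 lower and 0 higher of 35 targets, against 7.46% lower and 11.8% higher of all genes.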

How the data were processed

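RNA-seq of poly(A)-selected RNA was measured in 6 diaphragm libraries. The authors aligned the reads with STAR to mm9, per the labels, and deposited 1 RPKM value per Ensembl gene ID, with no counts; the STAR version is not given in the sources used here. Depth was estimated from the lowest listed value of each library. Gene symbols came from GENCODE M21 (21583 IDs matched, 1490 not), and promoter sequences from RefSeq on GRCm38.p6. For each comparison, genes averaging at least 0.5 RPKM in its 4 libraries entered the fit as log2(RPKM + 0.5) with limma 3.58.1 in R 4.3.3 (trend, Benjamini-Hochberg adjustment, all p-values two-sided), after a run on simulated data, so a fold change understates that of low genes. Ratios between genes were compared with the exact permutation test. Each of the 9 genes was named by rule, with the 3 genes of nearest pattern for each. The members and the gene lists were chosen with earlier results of these data known. Lists overlap: Myog is also 1 of the 12 muscle markers, and the other 11 are all among the 35 differentiation targets. Other pseudocounts, filters, scalings, sample sets and left-out libraries were tried.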

Additional observations from a re-analysis of the deposited data

How the results depend on the processing

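Of 360 alternative fits of the 9 regulators in the 3 comparisons, 325 kept the direction and the side of the 0.05 threshold, 25 changed direction and 10 newly passed; none had a call to lose. In mutant against WT the median over all genes, -0.1 on the log2 scale, was -0.00075 after median-ratio scaling. With that scaling the mutant-to-WT log2 fold change was 0.025 for Pax3, 0.1 for Myf5 and 0.072 for Mef2c, and that of Myf5 was 0.02 in Wnt1-Ribotag against WT. With quantile normalization it was 0.11 for Pax3 and 0.14 for Myf5 in mutant against WT, and -0.12 for Six4 in Wnt1-Ribotag against mutant. Relative to muscle markers, chosen after seeing the data, it was -0.22 for Myog in mutant against WT, -0.14 for Pax7 in Wnt1-Ribotag against WT and 0.2 for Myf5 in Wnt1-Ribotag against mutant. Leaving out 1 library at a time gave mutant-to-WT ranges of -0.2 to 0.087 for Pax3, -0.12 to 0.11 for Myf5, -0.61 to 0.043 for Myod1, -0.037 to 0.4 for Myog and -0.19 to 0.11 for Mef2c. In Wnt1-Ribotag against WT the ranges were -0.5 to 0.54 for Pax7, -0.068 to 1.77 for Eya1 and -0.49 to 0.39 for Myf5. In Wnt1-Ribotag against mutant they were -0.19 to 0.86 for Pax7, -0.057 to 0.16 for Six4 and -0.48 to 0.39 for Myf5.

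Calls of members appeared only where a Wnt1-Ribotag library was left out, so that the lone one was assumed to vary like the other group. These fits called a much larger share of all genes than the main fits did, so that the calls are not particular to the members. Only the log2 fold changes are given. In Wnt1-Ribotag against WT, without Wnt1-Ribotag 1, the members called were Pax3 (0.72), Eya1 (1.77), Myod1 (-0.47) and Myf6 (0.71). Without Wnt1-Ribotag 2 they were Myod1 (-0.8), Myog (-0.57), Myf6 (0.51) and Mef2c (0.46). In Wnt1-Ribotag against mutant they were Pax7 (0.86) without library 2 and Eya1 (2.29) without library 1, whereas Eya1 was 0.46 and not called without library 2. The mutant-to-WT log2 fold change of Myf6 was 1.42 without mutant 2 and 0.83 without mutant 1.

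The number of genes past the threshold in mutant against WT was 24, and it was 0 with no filter on low values, 0 with all 6 libraries in the fit and 70 relative to muscle markers, with 10 to 106 when a library was left out. In Wnt1-Ribotag against WT it was 1, and 0, 138 and 339 in the same order, 2 with median-ratio scaling, and 26 to 5965 with a library left out. In Wnt1-Ribotag against mutant it was 171, and 112, 692 and 263 in that order, 83 with quantile normalization, and 112 to 3672 with a library left out. The direction of the calls shifted too: in that comparison 146 were higher and 25 lower, against 13 higher and 99 lower with no filter and 253 higher and 10 lower relative to muscle markers. In mutant against WT 7 were higher and 17 lower, against 3 higher and 67 lower relative to muscle markers, where the median of all genes was -0.5. The cause was not tested. The replicate block, for the number shared by the Wnt1-Ribotag and mutant libraries, gave 842 genes and called no member; same-numbered libraries deviated together with a correlation of 0.169 over 14320 genes, but 2 pairs do not show that they are paired. With 2 libraries in each group, no single value can pass an exact test, and no group is large enough to look for outlying samples. The estimated reads behind a member were at least 915, and reads of amplified libraries are not independent molecules.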

Other observations

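The regulators differed in how closely the 2 libraries of a group matched. Eya1 differed by 1.83 on the log2(RPKM + 0.5) scale between the Wnt1-Ribotag libraries and by 0.63 between the WT libraries, each more than 97.5% of 14320 genes in the same pair, and by 0.022 between the mutant libraries. Myf6 differed by 0.6 between the mutant libraries, more than 94.1% of genes, and Myod1 by 0.65, more than 95.3% of genes. Pax7 differed by 1.04 between the Wnt1-Ribotag libraries, more than 88.4% of genes. The median difference over all genes was 0.13 in WT, 0.19 in mutant and 0.39 in Wnt1-Ribotag libraries.

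Several muscle genes outside the 9 had the same side as Myf6 in mutant against WT, and they were singled out after their values were seen. Tnnc2, fast skeletal troponin C, was 345 and 268 RPKM in WT and 646 and 560 in mutant (log2 fold change 0.98, limma adjusted p = 0.111). Cav3, the muscle caveolin, was 43.5 and 38.3 RPKM in WT and 78.2 and 66.8 in mutant (log2 fold change 0.82, limma adjusted p = 0.105). Klhl41, a sarcomere-associated protein, was 53.7 and 56.8 RPKM in WT and 88.0 and 93.6 in mutant (log2 fold change 0.71, limma adjusted p = 0.111). None of these passed the threshold. Of the 35 differentiation targets 12 were below 0, among them Mymk, which is needed for myoblast fusion, at 38.7 and 31.7 RPKM in WT and 38.6 and 15.6 in mutant (log2 fold change -0.5, limma adjusted p = 0.527). Cdh15, a cadherin of myoblasts, was 34.6 and 27.7 RPKM in WT and 37.6 and 16.3 in mutant (log2 fold change -0.32, limma adjusted p = 0.664).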
